A study of Mus musculus with 9 samples.

Results

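The 10 genes described here encode elastic fibre proteins and the enzymes that crosslink them: Eln, Fbn1, Fbn2, Fbln5, Mfap4, Mfap5, Emilin1, Lox, Loxl1 and Loxl2. They were taken by symbol from a table of 17156 genes, and all 10 were found and passed a filter on low counts that kept 13613 genes. RNA was sequenced from cultures of mouse pancreatic stellate cells, the fibroblast-like cells of the pancreas that store retinoids at rest and lay down matrix in injury and cancer. All cells were labelled wild type, of strain C57BL/6J, and were kept for 4 days in 1 of 3 media, with 3 libraries each. MG-CM was a control medium of DMEM with 5% fetal bovine serum, which a label also calls Matrigel-conditioned. CM was medium conditioned by tumour organoids, and CM-JAKi was CM with 500 nM AZD1480, an inhibitor of JAK kinases. The serum content of CM and CM-JAKi is not stated, so it may differ from that of MG-CM. Replicate 1 of each group was grown from the line PSC4, replicate 2 from PSC5-I and replicate 3 from PSC5-II. In CM and CM-JAKi each replicate number had its own source of conditioned medium, so line and medium source cannot be told apart there. No such source is listed for MG-CM. No group received the inhibitor in control medium.

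Elastic fibres consist of a core of crosslinked elastin laid onto a scaffold of fibrillin microfibrils. Fibulin-5 helps to bring elastin monomers to the microfibrils, and EMILIN-1 lies at the border between core and scaffold. Lysyl oxidases are copper-dependent amine oxidases that turn lysines of elastin and collagen into reactive aldehydes, from which the crosslinks form. In the pancreas, activated stellate cells are a main source of fibrous matrix, and this crosslinking stiffens it.

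Library totals ran from 25625806 to 32466018 counts. CM libraries stood apart on the first principal component of log2 CPM, at -79.5, -37.6 and -35.8 against -0.722 to 47.4 for the rest. CPM here means counts per 1000000 of the library total, after scaling by TMM, edgeR's correction for composition. All 11 fibroblast and stellate markers were counted in all 9 libraries, and their summed level was 5199 to 8252 CPM. Single markers of that list moved both ways: in CM against MG-CM Dcn was called higher (375 to 2718 CPM on average) and Vim lower (1557 to 765 CPM), and in CM-JAKi against CM Col1a1 and Col1a2 were called higher and Dcn lower. Acta2, the smooth muscle actin of activated stellate cells, averaged 513 CPM in MG-CM, 71.7 CPM in CM and 405 CPM in CM-JAKi, and its 2 changes around CM were called in a fit with the replicate number as a block (adjusted p = 0.00965 and 0.00861; 0.0556 and 0.0559 without it). Leukocyte markers summed to 2.52 to 4.10 CPM, with Ptprc at 0 or 1 count. Endothelial markers summed to 3.12 to 7.55 CPM, of which Tek was called lower in CM against MG-CM (-1.67, edgeR adjusted p = 0.0224) and higher in CM-JAKi against CM (1.39, adjusted p = 0.0255). Epithelial markers summed to 12.7 to 31.3 CPM, with Epcam, Cdh1 and Cldn4 at 0 to 6 counts, Krt19 at 22 to 648 and Muc1 at 51 to 475. With the inhibitor Muc1 was called lower than in CM (-1.83, adjusted p = 0.0326). With the block, Krt19 was called lower in CM than in MG-CM and higher in CM-JAKi than in CM (adjusted p = 0.0156 and 0.00358). Smooth muscle and pericyte markers moved with the groups, at 126 to 191 CPM in MG-CM, 64.6 to 99.3 CPM in CM and 126 to 158 CPM in CM-JAKi. Of these 8 markers 2 fell in CM against MG-CM (4 with the block) and 2 rose in CM-JAKi against CM (6 with the block), where 5.39% of all genes were called lower and 10.1% higher (12.8% and 18.6% with the block). The part of these markers in the results below was not tested. In bulk RNA, fewer cells of a kind and less RNA per cell cannot be told apart.

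Together the 10 genes took 0.159% to 0.177% of the counts of MG-CM libraries, 0.0761% to 0.166% of CM libraries and 0.217% to 0.268% of CM-JAKi libraries. Lox weighs most in these shares, with the highest mean of the 10 in each medium (644, 375 and 1211 CPM). Without a replicate block, elastin fell in CM against MG-CM, and elastin, Lox and Mfap4 rose in CM-JAKi against CM. The fall of elastin and the rise of Mfap4 were lost in some fits that left out 1 library. With the replicate number as a block, Fbn2 also fell in CM, and Fbn2 and Emilin1 also rose in CM-JAKi against CM. In each comparison, differences are log2 fold changes fitted by edgeR and tested with its quasi-likelihood F-test. Their standard errors were derived from that test, as the absolute change divided by the square root of F. A gene was called at a Benjamini-Hochberg adjusted p under 0.05 over all genes tested. In CM against MG-CM, 1 of the 10 was called lower and 0 higher, where 5.39% of all genes were called lower and 4.85% higher. With the inhibitor, in CM-JAKi against CM, 3 were called higher and 0 lower, where 10.1% of all genes were called higher and 8.93% lower. In CM-JAKi against MG-CM, edgeR called 0 of the 10, where 0.286% of all genes were called higher and 0.72% lower. There, 2 of the 10 had a p under 0.05 before adjustment, as had 1453 of the 13613 genes tested, and DESeq2 called 1 of the 10 and 512 genes in all.

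Libraries of the same replicate number share a cell line, and fitting that number as a block gave more calls. With that replicate block 2 of the 10 were lower in CM than in MG-CM and 0 higher, against 12.8% and 11.6% of all genes. For CM-JAKi against CM the block gave 5 higher and 0 lower, against 18.6% and 15.6% of all genes. For CM-JAKi against MG-CM it gave 1 higher and 0 lower, against 1.85% and 2.4% of all genes. The median log2 change of the 10 was -0.60 in CM against MG-CM, 0.94 in CM-JAKi against CM and 0.28 in CM-JAKi against MG-CM, beside medians of 0.00575, 0.00802 and 0.00541 over all genes tested. The CM libraries enter the first and second of these comparisons with opposite sign, so the medians are not independent of each other. For 4 of the 10 the CM-JAKi and CM libraries did not overlap, as for 38.3% of all genes. CM and MG-CM did not overlap for 2 of the 10, as for 32.7% of all genes.

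**Figure D1:**
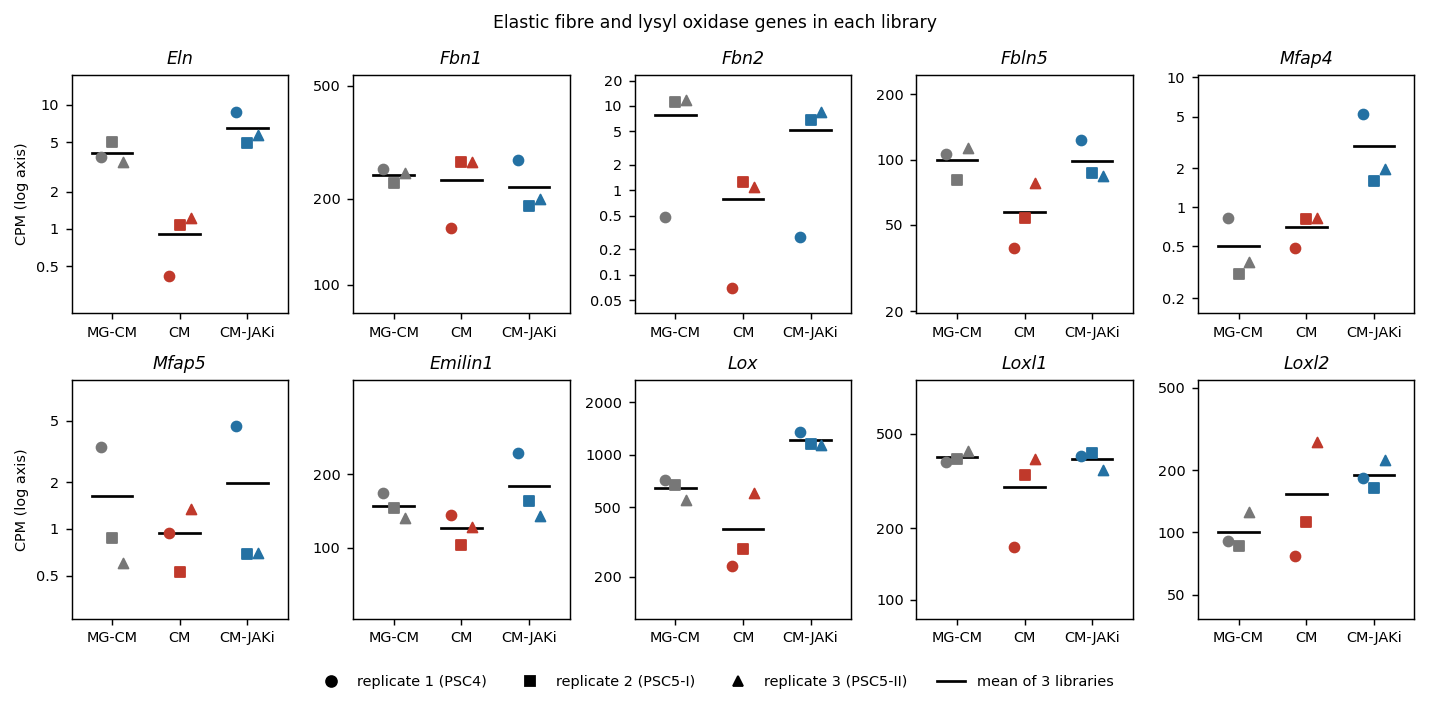
Level of each of the 10 genes in the 9 libraries, in CPM on a log axis, by medium; symbols mark the replicate number with its line, and bars the mean of 3 libraries. Eln sits at 0.417 to 1.21 CPM in CM and at 3.49 CPM or more in every other library, Lox is at 1139 CPM or more in all CM-JAKi libraries, and Fbn2 is lowest in replicate 1 of every medium.

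Eln, which encodes tropoelastin, was measured at 3.81, 5.04 and 3.49 CPM in the MG-CM libraries (here and below in the order of replicates 1, 2 and 3), at 0.417, 1.08 and 1.21 CPM in CM, and at 8.77, 4.94 and 5.69 CPM in CM-JAKi. The CM libraries were the 3 lowest, with no overlap with either other group, while MG-CM and CM-JAKi overlapped. The counts behind the CM values were small, at 12, 35 and 37, with exact 95% counting intervals of 0.216 to 0.729, 0.755 to 1.51 and 0.855 to 1.67 CPM. The change in CM against MG-CM was -2.17 ± 0.40 (edgeR adjusted p = 0.0160), and Eln was lower in 3 of 3 same-numbered pairs. That call was lost without MG-CM replicate 2 (adjusted p = 0.0728), without all of replicate 2 (adjusted p = 0.196) and without all of replicate 3 (adjusted p = 0.0953). Eln rose by 2.83 ± 0.40 in CM-JAKi against CM (edgeR adjusted p = 0.00323). This rise was called whichever of the 6 libraries was left out (adjusted p from 0.00406 to 0.0107), and was lost without all of replicate 2 (adjusted p = 0.0664). Against MG-CM the value in CM-JAKi was 0.65 ± 0.36 (adjusted p = 0.608).

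The fibrillins behaved unlike each other. Fibrillin-1 forms the bulk of microfibrils in adult tissue, and fibrillin-2 is known mainly from development. Fbn1 read 255, 227 and 247 CPM in MG-CM, 159, 269 and 269.8 CPM in CM, and 273, 189 and 199 CPM in CM-JAKi. The groups overlapped in all comparisons, and the lowest library was CM replicate 1, from PSC4. No change of Fbn1 passed the test over 9 libraries: it was -0.06 ± 0.21 in CM against MG-CM (edgeR adjusted p = 0.881) and -0.08 ± 0.21 in CM-JAKi against CM (adjusted p = 0.833). Leaving out replicate 1, and so PSC4, gave -0.47 in CM-JAKi against CM (adjusted p = 0.0102). PSC4 and PSC5 libraries went opposite ways for this gene, as the plot of same-numbered pairs shows.

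Fbn2 separated the lines. It had 14, 2 and 9 counts in the PSC4 libraries of MG-CM, CM and CM-JAKi, at 0.0695 to 0.480 CPM, and 1.08 to 11.8 CPM in the 6 PSC5 libraries. Within PSC5, replicates 2 and 3 read 11.1 and 11.8 CPM in MG-CM, 1.24 and 1.08 CPM in CM, and 6.73 and 8.43 CPM in CM-JAKi. The PSC4 libraries had the same order of media, but the 2 counts in CM have an exact 95% interval of 0.00842 to 0.251 CPM. With lines mixed in the error, the change in CM against MG-CM was -3.27 ± 1.37 (edgeR adjusted p = 0.159). With the replicate block it was -3.26 ± 0.20 (adjusted p = 0.000532), and without replicate 1 it was -3.30 (adjusted p = 0.00124). With the inhibitor, the change against CM was 2.67 ± 1.35 (adjusted p = 0.198), or 2.64 ± 0.20 with the block (adjusted p = 0.000275) and 2.70 without replicate 1 (adjusted p = 0.000612). Fbn2 was lower in CM than in the same-numbered MG-CM library in 3 of 3 pairs, and higher in CM-JAKi than in CM in 3 of 3.

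Transcripts of the microfibril-associated proteins were scarce. MFAP4 binds elastin and fibrillin, and MFAP5, also called MAGP-2, binds fibrillin. Mfap4 stood at 0.823, 0.305 and 0.379 CPM in MG-CM, at 0.487, 0.806 and 0.820 CPM in CM, and at 5.26, 1.59 and 1.97 CPM in CM-JAKi. The CM-JAKi libraries were the 3 highest, with no overlap with the others, and MG-CM and CM overlapped. Behind these lay 9 to 26 counts per library in MG-CM and CM and 51 to 171 in CM-JAKi. Mfap4 rose by 2.05 ± 0.54 in CM-JAKi against CM (edgeR adjusted p = 0.0322). It was called in 2 of the 6 fits that each left out 1 library. Adjusted p was 0.103, 0.0703 and 0.0667 without CM replicates 1, 2 and 3, and without CM-JAKi replicate 1 the change was 1.32 (adjusted p = 0.0754). Against MG-CM the change was 2.54 ± 0.56 (adjusted p = 0.0839), called with the replicate block at 2.48 ± 0.48 (adjusted p = 0.0369).

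Mfap5 was highest in PSC4 in MG-CM and CM-JAKi. It read 3.40, 0.939 and 4.59 CPM in the PSC4 libraries of MG-CM, CM and CM-JAKi, and 0.527 to 1.35 CPM in the 6 PSC5 libraries. In PSC5-II the CM library was above both others, at 1.35 CPM against 0.606 CPM in MG-CM and 0.696 CPM in CM-JAKi. The groups overlapped and no change passed the test, with -0.80 ± 0.90 in CM against MG-CM (edgeR adjusted p = 0.608) and 1.09 ± 0.89 in CM-JAKi against CM (adjusted p = 0.419).

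Fibulin-5 and EMILIN-1 link elastin to the microfibrils and to cell surface integrins. Fbln5 stood at 107, 80.7 and 113 CPM in MG-CM, at 39.1, 54.0 and 78.4 CPM in CM, and at 124, 87.1 and 84.4 CPM in CM-JAKi. All 3 CM libraries were below all others, with CM replicate 3 close to MG-CM replicate 2. The change was -0.81 ± 0.26 in CM against MG-CM (edgeR adjusted p = 0.0820) and 0.78 ± 0.26 in CM-JAKi against CM (adjusted p = 0.0658), so neither passed the test. Without CM replicate 3 both did, at -1.10 (adjusted p = 0.0339) and 1.07 (adjusted p = 0.0236).

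Emilin1 read 168, 146 and 133 CPM in MG-CM, 136, 102 and 121 CPM in CM, and 244, 155 and 135 CPM in CM-JAKi. Within each medium the PSC4 library was the highest, and the groups overlapped. The change was 0.57 ± 0.22 in CM-JAKi against CM (edgeR adjusted p = 0.0963), which the replicate block called at 0.54 ± 0.13 (adjusted p = 0.0207), with Emilin1 higher in 3 of 3 pairs. In CM against MG-CM it was -0.31 ± 0.21 (adjusted p = 0.391).

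Promoter windows are shown for 3 of the 10 genes, from the RefSeq table used, on build GRCm38.p6. Each runs from 250 bases before to 50 bases after an annotated start. Fbn2 and Lox, which share a chromosome, were left out of this search by rule, so whether the table holds their windows is not reported. The 3 genes shown were those with a window after that rule, whatever their levels. Eln, Fbn2, Mfap5, Lox and Loxl1, for which no window is shown, also had their lowest mean in CM, as Fbln5 and Emilin1 did. Capitals mark CAGAC, the core bound by SMAD proteins, the effectors of TGF-beta signalling. The windows are chr12:101819070-101819369, minus strand, for Fbln5, chr5:30913536-30913835, plus strand, for Emilin1, and chr2:125506389-125506688, minus strand, for Fbn1.
Fbln5: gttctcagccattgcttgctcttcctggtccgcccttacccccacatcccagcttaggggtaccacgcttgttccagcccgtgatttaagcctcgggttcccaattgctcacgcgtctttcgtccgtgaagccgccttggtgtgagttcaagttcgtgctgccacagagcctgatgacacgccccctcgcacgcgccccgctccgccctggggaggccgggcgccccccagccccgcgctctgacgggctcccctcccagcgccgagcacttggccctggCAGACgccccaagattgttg
Emilin1: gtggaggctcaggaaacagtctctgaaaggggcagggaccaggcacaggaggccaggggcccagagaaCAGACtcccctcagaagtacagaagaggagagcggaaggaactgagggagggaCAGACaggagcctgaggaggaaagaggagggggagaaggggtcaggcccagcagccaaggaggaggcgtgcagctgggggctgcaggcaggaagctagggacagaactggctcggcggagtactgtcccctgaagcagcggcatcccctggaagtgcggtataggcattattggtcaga
Fbn1: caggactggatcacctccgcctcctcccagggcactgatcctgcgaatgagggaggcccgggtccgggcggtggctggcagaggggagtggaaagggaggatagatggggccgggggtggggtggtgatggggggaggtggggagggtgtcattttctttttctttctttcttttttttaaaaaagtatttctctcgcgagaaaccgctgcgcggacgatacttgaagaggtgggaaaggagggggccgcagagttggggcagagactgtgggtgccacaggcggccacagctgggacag

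Fbln5 held CAGAC at base 281 of the window shown, and a second annotated Fbln5 start, at chr12:101818435-101818734, held it at bases 52 and 236. The Emilin1 window held it at bases 69 and 122, and the Fbn1 window did not hold it. Searched on both strands, CAGAC was in 49.6% of 32851 windows of this length. The other motifs searched were TATAAA (in 13.6% of all windows), TGACTCA of AP-1 (5.20%), CATTCC of TEAD factors (14.7%), ACGTG of the hypoxia response (19.6%) and TTCNNNGAA of STAT factors (8.30%). None of these 5 was in the 4 windows of the 3 genes, which says only that the letters are not there. GC content was 65.7% in the Fbln5 window shown, 61.7% for Emilin1 and 60.3% for Fbn1, beside a median of 52.7% over all windows.

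Among the lysyl oxidases, Lox had the widest range in CPM. LOX is the founding enzyme of the family and is secreted as a proenzyme. Lox stood at 714, 667 and 553 CPM in MG-CM, at 229.9, 289 and 606 CPM in CM, and at 1345, 1149.8 and 1139 CPM in CM-JAKi. All CM-JAKi libraries were above all others, and CM replicate 3 lay among the MG-CM libraries. Lox rose by 1.69 ± 0.32 in CM-JAKi against CM (edgeR adjusted p = 0.0102). This call held whichever of the 6 libraries was left out (adjusted p from 0.000544 to 0.0360), and was lost without all of replicate 2 (adjusted p = 0.157). In CM against MG-CM the change was -0.78 ± 0.32 (adjusted p = 0.147), and without CM replicate 3 it was -1.31 (adjusted p = 0.0121). Against MG-CM, the CM-JAKi value was 0.91 ± 0.32 (adjusted p = 0.314). Lox was higher there in 3 of 3 pairs, as were 24.6% of all genes. These 2 groups did not overlap, as for 17.1% of all genes counted in either direction. Fitted on the 6 libraries of that comparison alone, Lox was called higher (adjusted p = 0.0365).

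LOXL1 is the family member most tied to elastic fibre upkeep. Loxl1 read 381, 390.0 and 421 CPM in MG-CM, 167, 336 and 391 CPM in CM, and 402, 416 and 349.9 CPM in CM-JAKi. The library that stood apart was CM replicate 1, and the groups overlapped in all comparisons. The changes were -0.41 ± 0.26 in CM against MG-CM (edgeR adjusted p = 0.344) and 0.39 ± 0.26 in CM-JAKi against CM (adjusted p = 0.331).

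LOXL2 crosslinks collagen IV of basement membranes as well as fibrillar matrix. Loxl2 read 90.7, 85.7 and 126 CPM in MG-CM, 76.5, 112 and 273 CPM in CM, and 183, 164 and 223 CPM in CM-JAKi. CM replicate 3 was the highest of the 9 libraries and CM replicate 1 the lowest. The changes were 0.61 ± 0.41 in CM against MG-CM (edgeR adjusted p = 0.372) and 0.30 ± 0.41 in CM-JAKi against CM (adjusted p = 0.639). Without CM replicate 3 they were -0.10, and 1.00 with an adjusted p of 0.0289. CM replicate 3 also had the highest summed level of mesothelial markers, 69.1 CPM, of which Msln, the mesothelin gene, made 67.1 CPM. CM-JAKi replicate 3 followed at 54.2 CPM and the other libraries were at 21.8 CPM or less, while the mesothelial markers Upk3b and Lrrn4 had 0 to 8 counts in every library. Wt1, another such marker, had 1 to 59 counts and was called lower in CM-JAKi than in CM (-2.89, adjusted p = 0.0415). The part of these markers in the Loxl2 level was not tested. The fitted Loxl2 value in CM-JAKi against MG-CM was 0.91 ± 0.41 (adjusted p = 0.482). It was higher in 3 of 3 pairs, as were 24.6% of all genes, and the groups did not overlap, as for 17.1%.

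**Figure D2:**
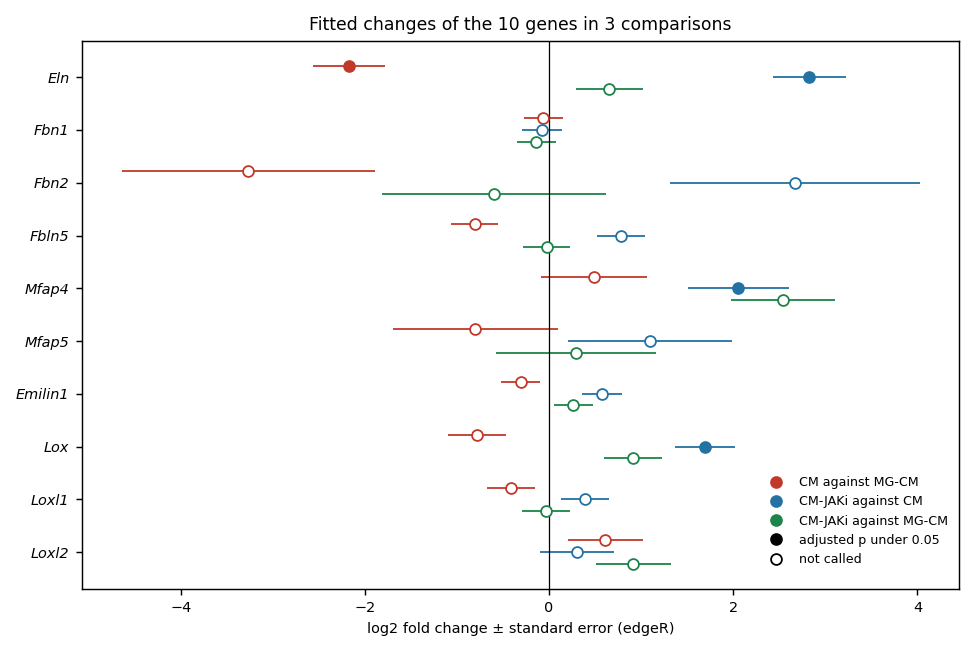
Fitted log2 fold change of each of the 10 genes with its standard error, in the 3 comparisons; filled points have an adjusted p under 0.05. Eln is filled at -2.17 in CM against MG-CM, and Eln, Mfap4 and Lox are filled at 2.83, 2.05 and 1.69 in CM-JAKi against CM.

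Within replicate numbers, 5 of the 10 were lower in CM than in MG-CM in 3 of 3 pairs: Eln, Fbn2, Fbln5, Emilin1 and Loxl1. Over all genes tested, 29.3% were lower in 3 of 3. Of the 10, 6 were higher in CM-JAKi than in CM in 3 of 3: Eln, Fbn2, Fbln5, Mfap4, Emilin1 and Lox, where 33.3% of all genes were. The size differed by pair. The log2 CPM of Eln in CM-JAKi and CM differed by 4.19 in replicate 1, 2.12 in replicate 2 and 2.17 in replicate 3. For Lox these differences were 2.55, 1.99 and 0.91, and for Mfap4 they were 3.267, 0.921 and 1.201. The PSC4 pair had the largest difference of the 3 for all of the genes that were higher in 3 of 3 pairs except Fbn2, whose differences were 1.33, 2.38 and 2.89. PSC4 is a single pair, so whether the lines differ was not tested. Beside Eln, Mfap4, Lox and Loxl2, the other 6 genes (Fbn1, Fbn2, Fbln5, Mfap5, Emilin1 and Loxl1) had changes in CM-JAKi against MG-CM that ran from -0.60 to 0.29, with edgeR adjusted p of 0.781 to 0.989. Of these, Fbn2 was lower in 3 of 3 pairs, as were 23.8% of all genes. Its change with the replicate block was -0.62 ± 0.16 (edgeR adjusted p = 0.0917).

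**Figure D3:**
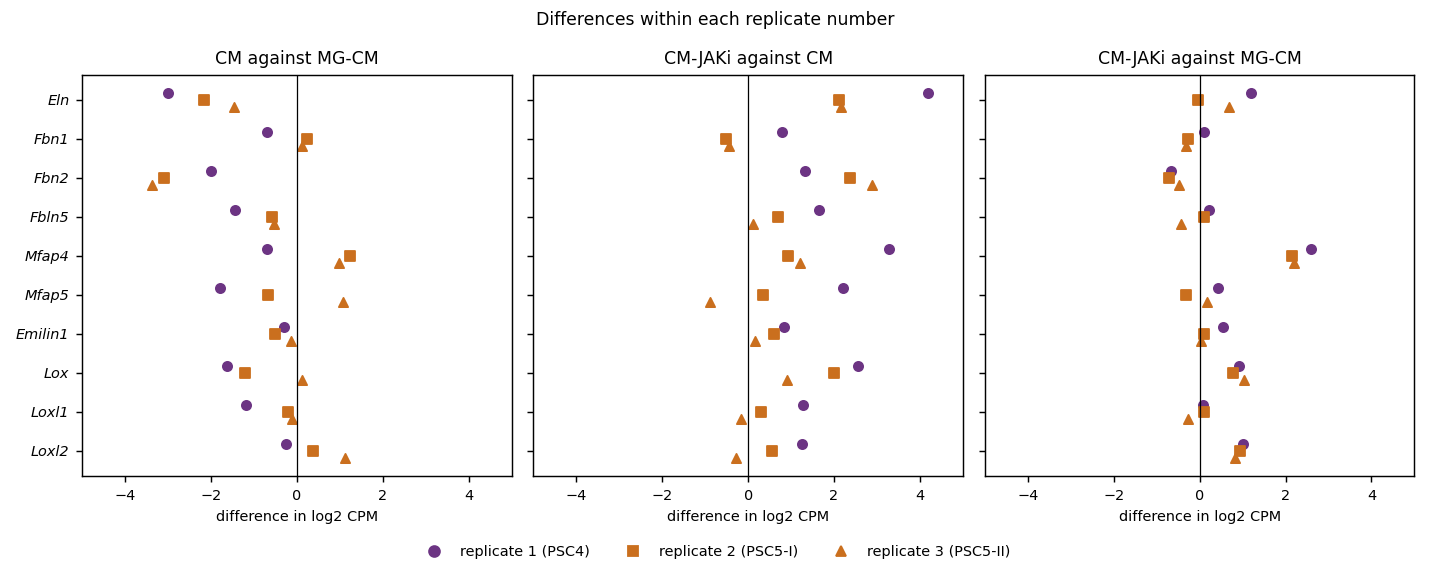
Difference in log2 CPM between same-numbered libraries for each of the 10 genes, in 3 panels for the 3 comparisons; symbols mark replicate 1 (PSC4) and replicates 2 and 3 (PSC5-I and PSC5-II). Fbn1 lies at -0.68 in the PSC4 pair and at 0.24 and 0.13 in the PSC5 pairs for CM against MG-CM, and Eln lies below 0 in all 3.

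Levels per length were compared between genes by dividing CPM by the length in kb of the GENCODE M21 transcript with the longest coding sequence. In MG-CM the order was Lox (136 ± 17.5 CPM per kb, SD, n = 3), Loxl1 (121 ± 6.39), Fbln5 (42.3 ± 7.27), Emilin1 (38.6 ± 4.60), Fbn1 (20.3 ± 1.18) and Loxl2 (19.0 ± 4.12). The remaining genes were Mfap5 at 1.08, Eln at 1.07, Fbn2 at 0.704 and Mfap4 at 0.535 CPM per kb. Neighbours in this order lay within their spread of each other, except that Loxl1 was above Fbln5, Emilin1 above Fbn1, and Loxl2 above the 4 scarce genes. In CM, Loxl1 stood first at 90.4 ± 35.5 CPM per kb and Lox next at 79.0 ± 42.7, followed by Emilin1 (31.1), Loxl2 (28.9), Fbln5 (24.1) and Fbn1 (19.4), with Eln at 0.235. In CM-JAKi, Lox stood first at 255 ± 24.4, above Loxl1 at 118 ± 10.6, and Eln was at 1.68. Lox, Loxl1 and Loxl2 were above Eln per length in all 9 libraries. With the length of all exons joined, Fbln5 moved to sixth place in all 3 media.

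The genes most like each member over the 9 libraries are given as a description, since libraries share medium, line and depth. Among genes with a mean of at least 5 CPM, the log2 CPM of Eln was closest to that of Susd2 (Pearson r = 0.993), Sh3bgrl (0.990) and Sepp1 (0.989). Lox was closest to Pitpnc1 (0.982), Abl1 (0.963) and Il11ra1 (0.960), and Mfap4 to Gpatch2 (0.953), Lrig1 (0.935) and Rgs3 (0.924). For Fbn2, which follows the line as well as the medium, the closest were Cpa6 (0.979), Map2k3 (0.963) and Usp5 (0.962). Fbln5 was closest to Gfod2 (0.975), Emilin1 to Fundc1 (0.975), Loxl1 to Arhgap31 (0.971), Mfap5 to Grk5 (0.965), Fbn1 to Etohi1 (0.938) and Loxl2 to mt-Nd2 (0.906). Among the 10 themselves the highest r was that of Eln with Lox, at 0.909, or 0.710 with group means removed. Eln and Fbln5 gave 0.862 and Fbln5 and Loxl1 0.840.

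A wider list of 49 elastic fibre genes covered other microfibril proteins, fibulins, EMILINs, ADAMTS-like proteins, processing enzymes, elastases and receptors. Of these, 43 were tested. In CM against MG-CM 3 rose and 2 fell, with a median log2 change of -0.10, where 4.85% of all genes were called higher and 5.39% lower. With the replicate block 9 rose and 10 fell, where 11.6% of all genes were called higher and 12.8% lower. The risers were an elastase, a proteinase that acts on LOX and an integrin subunit. Mmp12, macrophage metalloelastase, had 1, 1 and 2 counts in MG-CM and 31, 60 and 91 in CM (edgeR adjusted p = 0.00566). Bmp1, whose product activates the LOX proenzyme and trims procollagen, rose by 0.66 ± 0.13 (adjusted p = 0.0210), from 161 to 255 CPM on average. Itga5, the fibronectin receptor subunit, rose by 0.59 ± 0.15 (adjusted p = 0.0388). The procollagen enhancer Pcolce2 fell by 1.70 ± 0.27 (adjusted p = 0.0106) and Adamtsl4, which binds fibrillin-1, fell by 1.31 ± 0.25 (adjusted p = 0.0185). The calls of Bmp1 and Adamtsl4 were lost when MG-CM replicate 2 or 3 was left out (adjusted p up to 0.0916 and 0.0825), and that of Itga5 in 5 of the 6 fits that left out 1 library (adjusted p up to 0.130). All 5 calls were lost without all of replicate 2 (adjusted p from 0.122 to 0.229), and all but that of Mmp12 without all of replicate 3 (adjusted p from 0.0775 to 0.192).

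In CM-JAKi against CM, 9 of the 43 rose and 5 fell, with a median of 0.16, where 10.1% of all genes were called higher and 8.93% lower. With the block 12 rose and 7 fell, where 18.6% of all genes were called higher and 15.6% lower. Microfibril and fibulin genes moved both ways. Mfap2, which encodes the microfibril protein MAGP-1, read 7.06, 19.6 and 19.6 CPM in CM and 47.3, 73.8 and 63.4 CPM in CM-JAKi, and rose by 1.99 ± 0.38 (edgeR adjusted p = 0.0105). Among the 5 other fibulins, Fbln7 rose by 2.98 ± 0.67 (adjusted p = 0.0190) and Fbln1 by 0.92 ± 0.27 (adjusted p = 0.0467), while Fbln2 fell by 0.98 ± 0.13 (adjusted p = 0.00275). Fbln2 was the most abundant of them by counts, at 2261 CPM in CM and 1146 CPM in CM-JAKi on average. The integrin subunit Itga8 rose by 2.94 ± 0.46 (adjusted p = 0.00499) and Itga5 fell by 0.84 ± 0.15 (adjusted p = 0.00747). Of the elastases, Mmp9 rose by 1.73 ± 0.32 (adjusted p = 0.00865), and Mmp12 fell by 2.34 ± 0.43 (adjusted p = 0.00860) and the cathepsin gene Ctsl by 1.14 ± 0.22 (adjusted p = 0.00960). The call of Fbln1 was lost whichever library was left out (adjusted p up to 0.128), and that of Fbln7 without CM replicate 3 or CM-JAKi replicate 2 (adjusted p up to 0.0674). The other 7 genes named here were called in all 6 such fits. Without all of replicate 2 none of these 9 genes was called (adjusted p from 0.0728 to 0.292), and without all of replicate 3 only Itga8 was (adjusted p of the others from 0.0632 to 0.151).

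The remaining lysyl oxidases gave no call in any comparison when all 9 libraries were fitted with TMM scaling. Loxl3 averaged 98.9 CPM in MG-CM, 94.2 CPM in CM and 80.3 CPM in CM-JAKi, and Loxl4 46.4, 36.6 and 47.2 CPM. Their changes in CM-JAKi against CM were -0.23 (edgeR adjusted p = 0.290; 0.0251 without CM replicate 1) and 0.37 (adjusted p = 0.110; 0.0398 with library totals alone). Without all of replicate 1, Loxl4 was called lower in CM against MG-CM (-0.55, adjusted p = 0.0204) and higher in CM-JAKi against CM (0.59, adjusted p = 0.00977), and Loxl3 lower in CM-JAKi against CM (adjusted p = 0.0258). Ltbp4, a latent TGF-beta binding protein that helps elastin assembly, averaged 13.6, 8.06 and 12.4 CPM in the 3 media. Its change was -0.75 in CM against MG-CM (adjusted p = 0.101) and 0.63 in CM-JAKi against CM (adjusted p = 0.124), and both were called with the block, at adjusted p of 0.0147 and 0.0169. The block also called Mfap2 lower in CM than in MG-CM (-1.03, adjusted p = 0.0180) and Fbln2 higher (0.46, adjusted p = 0.0356). Efemp2, or fibulin-4, on which elastin assembly depends, averaged 263, 245 and 225 CPM, with adjusted p of 0.502 in CM against MG-CM and 0.376 in CM-JAKi against CM. In CM-JAKi against MG-CM, Adamts10 rose by 0.54 ± 0.09 (adjusted p = 0.0325) and Pcolce2 fell by 1.53 ± 0.27 (adjusted p = 0.0354), and both calls were lost whichever of the 6 libraries was left out (adjusted p up to 0.123 and 0.156).

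**Figure D4:**
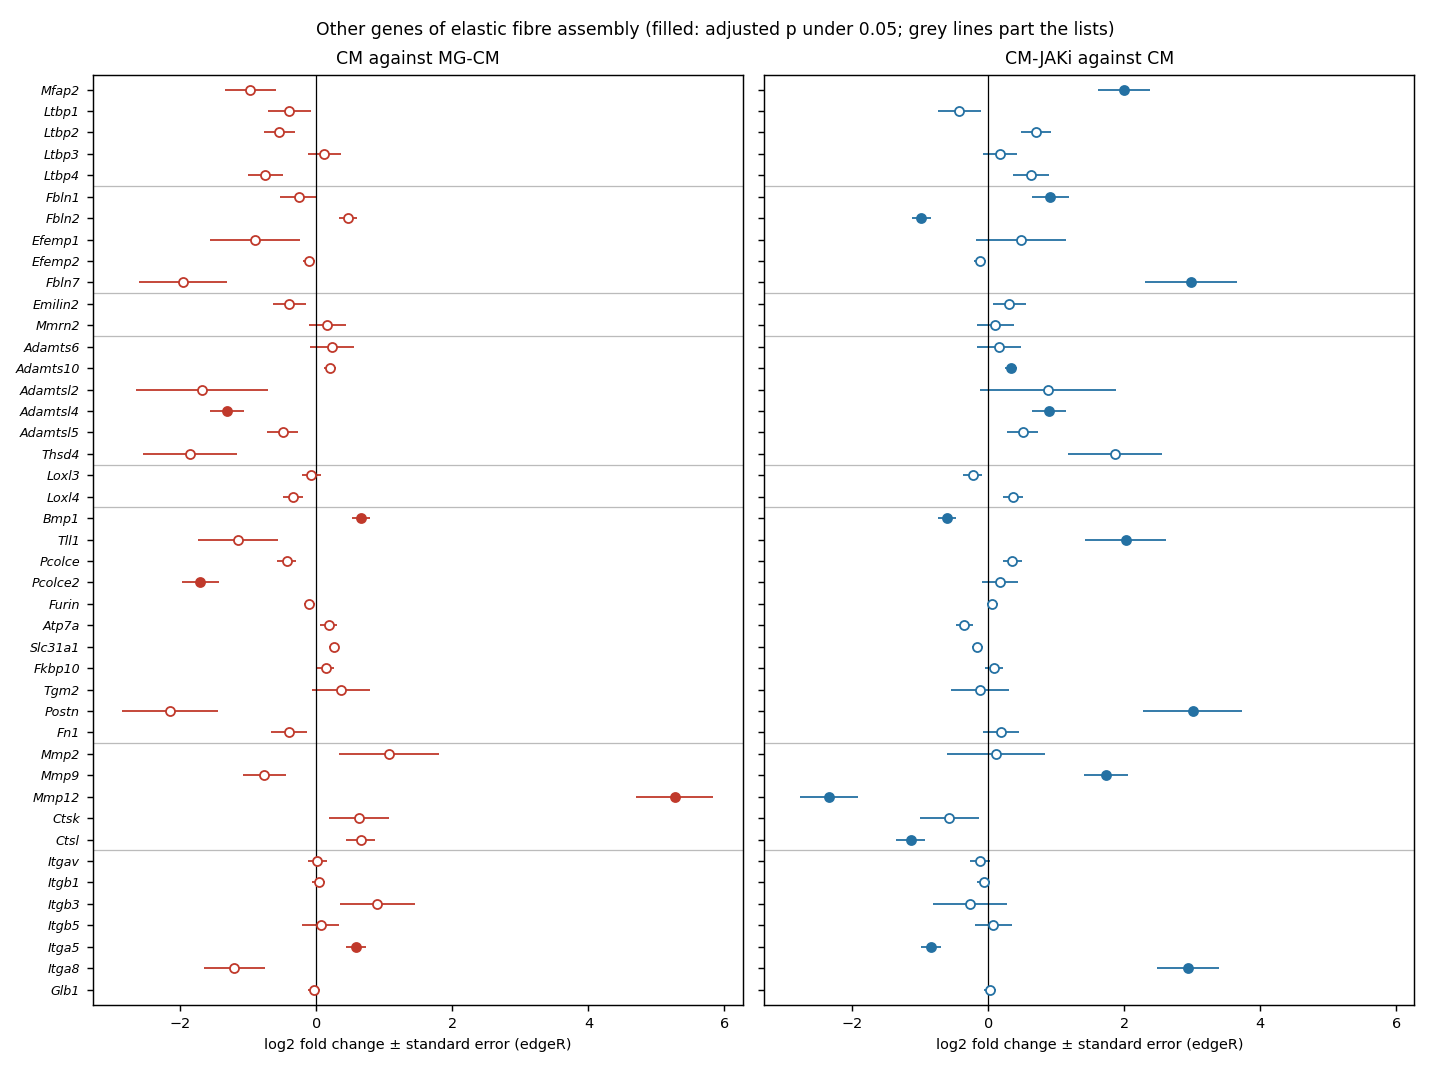
Fitted log2 fold change with its standard error of the 43 tested genes of the wider list, in CM against MG-CM and in CM-JAKi against CM; filled points have an adjusted p under 0.05. For CM-JAKi against CM, Fbln7 lies at 2.98, Itga8 at 2.94 and Mmp12 at -2.34, while Fbln2 at -0.98 lies opposite to Fbln1 at 0.92. The point of Mmp12 in CM against MG-CM rests on 1 to 2 counts per MG-CM library, so its size depends on the fit's prior count; grey lines part the groups of genes.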

How the data were processed

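Ribosomal RNA-depleted, strand-specific TruSeq libraries were made from PureLink-extracted RNA, per the labels' protocols. The authors deposited a table of expected counts per gene for 9 libraries, all whole numbers and not normalized. Whether these are rounded estimates is not given in the sources used here. DESeq2, RSEM 1.2.29, STAR 2.5.1b and the builds mm9 and NCBIM37 are named in the submitters' processing notes, without roles, so no gene coordinates are given for the counts. Reads shared by similar genes are divided between them by such estimates.

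Counts were fitted in R 4.3.3 with edgeR 4.0.16 (robust quasi-likelihood F-test, TMM scaling, filterByExpr with a minimum count of 10 and a total of 15). All 9 libraries entered with 1 term per group, so that the groups share an estimate of the spread. Adjustment was by Benjamini-Hochberg over 13613 genes. The scripts were tested on simulated data that held no effect of line or replicate number, so the replicate block was not tested on paired libraries. A limit on false calls was set there for the edgeR fits and not for DESeq2. Log2 CPM used a prior count of 2. Intervals given for counts are exact, at 95%, and reflect counting error alone. The p-values are set against the spread between the libraries of a medium. Line and culture are mixed in it, and in CM and CM-JAKi also the source of conditioned medium. With the replicate block they are set against the spread left after the replicate number is fitted.

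With group means subtracted, log2 CPM of same-numbered libraries, which share a line, correlated across genes at 0.291 to 0.680 over 9 pairs, against -0.536 to 0.279 over 18 other pairs, so the numbers pair the samples. The replicate block was an alternative, as were DESeq2 1.42.0, its size factors, library totals alone, no filter, the 6 libraries of a comparison, and leaving out each library. Leaving out each replicate number was added after the data were seen. With library totals alone the calls in CM against MG-CM were 495 higher and 887 lower, beside 660 and 734, and in CM-JAKi against CM 1853 and 865, beside 1369 and 1216. The members and all gene lists were chosen with earlier results of these data known. All 10 members were named. From the wider list, the 4 called genes with the smallest p in each direction and 7 others (Loxl3, Loxl4, Mfap2, Ltbp4, Efemp2, Fbln1, Fbln2) were named. For likeness, genes named Gm or Rik were left out, and of 3 closest genes per member the closest is given for some.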

Additional observations from a re-analysis of the deposited data

Results flagged for a closer look

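Some genes moved one way in the PSC4 pair and the other way in both PSC5 pairs. The difference between the lines was not tested, since PSC4 has a single pair. Differences are in log2 CPM, for replicates 1, 2 and 3. Fbn1 differed by -0.684, 0.245 and 0.129 in CM against MG-CM, by 0.786, -0.509 and -0.438 in CM-JAKi against CM, and by 0.103, -0.264 and -0.309 in CM-JAKi against MG-CM. Mfap4 differed by -0.685, 1.23 and 0.992 in CM against MG-CM, on 9 to 26 counts per library. Loxl2 differed by -0.245, 0.383 and 1.12 in CM against MG-CM.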

How the results depend on the processing

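For each member in each comparison 15 alternatives were run, 450 values in all: 393 kept their direction and side of the threshold, 18 gained a call, 12 lost one and 27 changed sign. None of the sign changes was of a called value. Counts of genes called in CM against MG-CM, 1394 in the analysis reported, were 2516 with DESeq2, 3325 with the replicate block, 793 with the 6 libraries compared, and 8 to 1713 when a library or a replicate number was left out (131 without MG-CM replicate 2, 8 without all of replicate 2). For CM-JAKi against CM, 2585 became 4655 with the replicate block, 1655 with the 6 libraries, and 256 to 2970 with libraries left out, lowest without all of replicate 2. For CM-JAKi against MG-CM, 137 became 512 with DESeq2, 579 with the replicate block, and 0 to 465 with libraries left out, where 0 came from leaving out all of replicate 3. Of the 10 members, CM against MG-CM called 1, or 2 with DESeq2, 2 with the replicate block and 0 to 3 with libraries left out. CM-JAKi against CM called 3, or 5 with DESeq2, 5 with the replicate block and 0 to 5 with libraries left out. CM-JAKi against MG-CM called 0, or 1 with DESeq2, 1 with the replicate block, 1 with the 6 libraries and 0 to 1 with libraries left out. The replicate block changed the call of no member other than Fbn2, Emilin1 and Mfap4. DESeq2 called Fbln5 in CM against MG-CM (adjusted p = 0.0178) and, with Emilin1 (adjusted p = 0.0484), in CM-JAKi against CM (adjusted p = 0.0177). With library totals alone Fbln5 was called in CM-JAKi against CM (adjusted p = 0.0447), and with the 6 libraries Mfap4 was not (adjusted p = 0.0524). Mfap4 was also called in CM-JAKi against MG-CM by DESeq2 (adjusted p = 0.00192) and without replicate 1 (adjusted p = 0.0185). Without all of replicate 2 or of replicate 3 its call in CM-JAKi against CM was lost (adjusted p = 0.141 and 0.138). Library totals alone moved the median of all genes to 0.103 in CM-JAKi against CM.

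Values that changed sign did so with libraries left out, over these ranges of log2 change. In CM against MG-CM they were -0.49 to 0.18 for Fbln1, -0.20 to 0.089 for Loxl3, -0.23 to 0.18 for Fbn1, -0.097 to 0.93 for Loxl2 and -1.54 to 0.33 for Mfap5. For CM-JAKi against CM they were -0.47 to 0.14 for Fbn1, -0.026 to 1.00 for Loxl2 and -0.44 to 1.85 for Mfap5, and Fbn1 was 0.015 with library totals alone. For CM-JAKi against MG-CM they were -0.10 to 0.12 for Loxl4, -0.32 to 0.18 for Ltbp4, -0.035 to 0.42 for Emilin1, -0.23 to 0.17 for Fbln5, -0.090 to 0.086 for Loxl1 and -1.24 to 1.42 for Mfap5. The cause was not tested. For the named genes of the wider list, 510 values under alternatives held 415 that kept direction and call, 19 that gained a call, 67 that lost one and 9 that changed sign. Depth limits the scarce genes: Eln, Fbn2, Mfap4 and Mfap5 rest on as few as 12, 2, 9 and 16 counts in a library.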
